A study of Rattus norvegicus with 12 samples.

Results

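Membrane transporters that load organic ions, bile acids, lipids and conjugates into liver cells or pump them out were examined in the livers of female rats of the inbred alcohol-preferring strain iP10a. The genes were taken by name from the table of RPKM values (reads scaled to transcript length and to the mapped reads of the library), as the ATP-binding cassette families Abca to Abcg and the solute carrier families Slco, Slc22a, Slc10a, Slc47a and Slc51. The table lists 127 transcripts of 77 such names. Of these, 64 genes had an RPKM above 0 in at least 1 of 12 livers, out of 15270 genes with any signal. Each gene is represented by its transcript with the highest mean RPKM. The uptake families Slco, Slc22a and Slc10a hold 25 of the 64 genes, the efflux families Abca, Abcb, Abcc, Abcg and Slc47a hold 32, and 7 genes of Abcd (peroxisomal and lysosomal transporters) and of Abce and Abcf (relatives without a membrane domain) stand apart. Abcb11, Abcc2, Abca1, Slco1a1 and Slco1a4 were not analysed here.

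The 6 EtOH animals chose freely for 23 weeks between water and bottles of 10%, 20% and 30% ethanol by volume, and the 6 control animals had water only. All were 38 weeks old at liver collection, except that EtOH animal 6 was 39 weeks old. Each liver is 1 animal, and all 12 come from 1 inbred strain bred for alcohol preference, so the animals share a genetic background. Poly(A) RNA was sequenced as 101-nucleotide paired-end reads. The reads recovered from the RPKM values came to between 2610238 and 4318141 per control liver and between 3945593 and 6030028 per EtOH liver. The EtOH libraries were thus deeper, and the part of depth in the results was not tested.

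In the hepatocyte, carriers of the sinusoidal membrane take bile acids, organic anions and organic cations from the blood. ATP-driven pumps of the opposite, canalicular membrane move bile salts, phospholipid, cholesterol and conjugated toxins into bile. A further set of pumps on the sinusoidal side returns conjugates and bile acids to the blood, and it is known to be raised when bile flow or the redox state of the cell is disturbed.

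The liver identity of the samples was read from hepatocyte markers. Albumin (Alb) ranged from 58000 to 85650 RPKM in control livers and from 66350 to 92320 RPKM in EtOH livers. Summed RPKM of 4 cholangiocyte markers lay between 4.37 and 8.27 in control livers and between 3.90 and 7.87 in EtOH livers. In whole-liver RNA, fewer cells of a type and less RNA per cell cannot be told apart, which applies to every difference described here.

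Levels among the transporters spanned from a signal in 1 of 12 livers to above 100 RPKM. Of the 64 genes, 2 had a mean of at least 100 RPKM, 21 of at least 10 RPKM and 40 of at least 1 RPKM, while 45 were above 0 in all 12 livers. The most abundant were the bile acid importer Slc10a1, with a mean of 312 ± 39.8 RPKM (SD, n = 6) in control livers, and the organic anion importer listed as Slco1b3, with 271 ± 38.8 RPKM. These levels do not differ beyond their spread in control livers. Below them among the uptake genes, in control livers, came the prostaglandin carrier Slco2a1 at 80.8 ± 8.80 RPKM and Slc22a18, a carrier-like protein encoded by an imprinted gene, at 80.6 ± 11.8 RPKM. These levels overlap as well. The most abundant efflux gene was Abcc6, a sinusoidal pump linked to ATP release, with 49.9 ± 2.53 RPKM. It was followed by Abcg3 at 35.7 ± 1.16 RPKM and by Abcb4, the canalicular phospholipid translocator, at 33.8 ± 4.41 RPKM. At the other end, 5 genes were above 0 in only 1 of 12 livers (Abca17, Abcc12, Slc22a2, Slc22a8 and Slc47a2). Their read numbers could not be recovered. A further 13 names were listed at 0 in every liver: Abcb5, Abcg4, Slc10a4, Slc22a6, Slc22a14, Slc22a20, Slc22a25, Slc47a1, Slco1c1, Slco4c1, Slco6b1, Slco6c1 and Slco6d1. The 2 rows of the organic solute transporter, listed under the older names Ostalpha and Ostbeta, were also at 0.

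**Figure D1:**
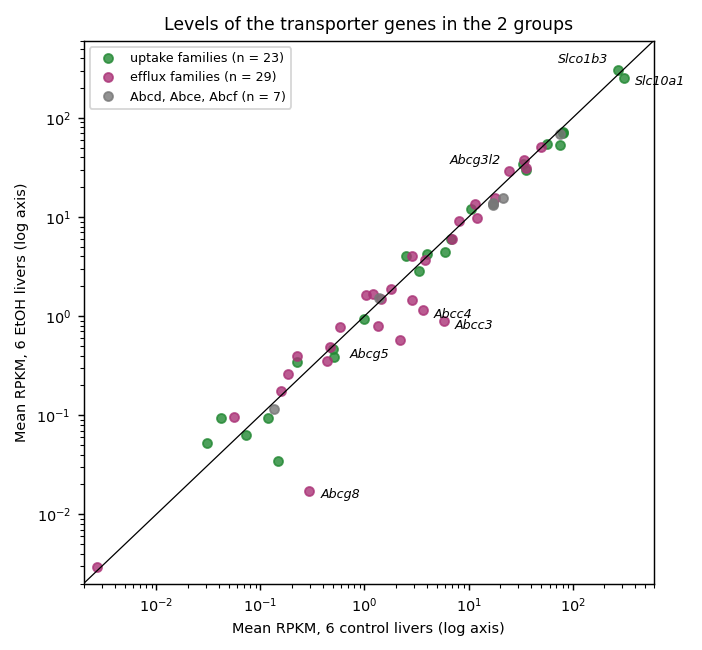
Mean RPKM of 6 control livers (x) against mean RPKM of 6 EtOH livers (y) on log axes, 1 point per gene, for the genes with a mean above 0 in both groups; green, uptake families; purple, efflux families; grey, Abcd, Abce and Abcf; the line marks equal levels. Most genes sit on the line, and Abcc3, Abcc4, Abcg5 and Abcg8 lie farthest below it among those labelled.

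The comparison of EtOH with control livers asked whether free-choice drinking went with other transporter transcript levels. Differences are log2 fold changes of EtOH minus control on quantile-normalized log2(RPKM + 0.5), tested with limma over all 21718 transcripts above 0 and called at a Benjamini-Hochberg adjusted p below 0.05. The added 0.5 understates the change of low genes. Of the 64 transporters, 1 was called lower (Abcc4) and 1 higher (Abcg3l2), or 3.12% called. Over all transcripts 2.42% were called, 1.29% lower and 1.13% higher. The share among the transporters is thus near the background. Among transcripts with a mean of at least 1 RPKM, 4.47% were called, against 5.0% of the 40 transporters at that level. At an unadjusted limma p below 0.05 there were 14 transporters, 8 lower and 6 higher, or 21.9%, against 15.5% of all transcripts. In 4 genes, among them Abcc4 and Abcf3, all 6 EtOH values lay below all 6 control values, which is 10.0% of the 40 genes with a mean of at least 1 RPKM, against 4.67% of all transcripts at that level. None of the 40 had all EtOH values above all control values, against 1.08% of all transcripts. The balance of directions depended on scaling. With the RPKM values left as deposited, 4 transporters were called lower and 0 higher, and over all transcripts 648 were called lower and 126 higher, in place of 281 and 245.

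The uptake and efflux families were described side by side. Of 25 uptake genes none was called by limma, 2 had an unadjusted p below 0.05 (both lower, 8.0%), and the median log2 fold change was -0.06. Of 32 efflux genes 1 was called in each direction, 9 had an unadjusted p below 0.05 (3 lower, 6 higher, 28.1%, beside 15.5% of all transcripts), and the median was 0.0031, which turned to -0.07 with reads recovered from the RPKM values and to -0.06 over the 15 plasma membrane exporters alone. The 7 genes apart had a median of -0.16, with 3 at an unadjusted p below 0.05, all lower. Among genes with a mean of at least 1 RPKM these shares were 14.3% of 14 uptake genes and 45.0% of 20 efflux genes, beside 24.3% of all transcripts at that level, and the difference between the families was not tested. Over all tested transcripts the median was 0.0002. The range was wider among efflux genes, from -1.84 (Abcc3) to 0.47 (Abcg3l3), than the 2 sides' medians were apart.

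**Figure D2:**
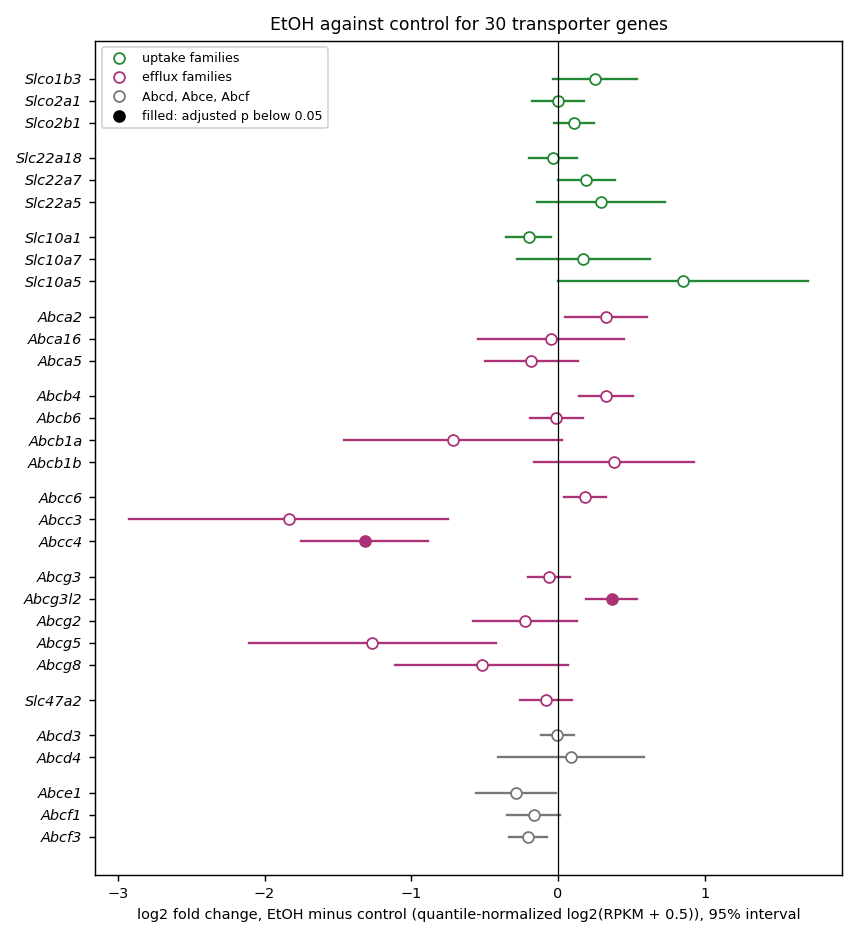
Log2 fold change of EtOH minus control livers with its 95% interval from limma (x) for 30 named genes, grouped by family; green, uptake; purple, efflux; grey, Abcd, Abce and Abcf; filled points have an adjusted p below 0.05. Abcc4 at -1.32 and Abcg3l2 at 0.37 are the filled points, and the intervals of Abcc3 and Abcg5 are the widest of those wholly below 0.

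Abcc4 encodes a sinusoidal pump for bile acids, cyclic nucleotides and conjugates. Its values in control livers had a lowest, median and highest of 2.48, 3.71 and 5.39 RPKM, and those in EtOH livers of 0.791, 0.987 and 1.97 RPKM. The groups did not overlap, with all EtOH livers on the low side. Abcc4 fell by 1.32 on the log2 scale (SE 0.20, limma adjusted p = 0.0066), and by a two-sided exact permutation test of its 6 against 6 values p = 0.00216, the smallest that design allows. The mean control level was 3.20 times the mean EtOH level. Leaving out any 1 liver kept the log2 fold change between -1.43 and -1.21 and the call in 12 of 12 cases. The level is low: 168 reads were recovered from control livers and 72 from the deeper EtOH libraries. The transcript is listed at chr15:103384866-103457438, a span that covers the gene with its introns, in the authors' coordinates.

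Abcc3 is the close relative of Abcc4 on the same membrane and carries glucuronides and bile acids. Control livers had a lowest, median and highest of 0.968, 6.28 and 11.1 RPKM, and EtOH livers of 0.395, 0.838 and 1.39 RPKM. Control animals 1 and 6, at 0.968 and 1.24 RPKM, lay among the EtOH livers, while the other 4 lay at 5.59 RPKM or above. The log2 fold change was -1.84 (SE 0.50), larger than that of Abcc4, and missed the threshold (limma adjusted p = 0.079). Abcc3 was called under 3 of 23 alternatives. Of these, 2 were the fits without control animal 1 (limma adjusted p = 0.027) and without control animal 6 (0.040). The other left out transcripts below a mean of 1 RPKM (0.034). Under the remaining alternatives Abcc3 was not called, with an adjusted p of up to 0.155 when 1 liver was left out (limma). Reads of Abcc3 are divided between 2 listed transcripts, and the values above are of the more abundant. Among controls only animals 1 and 6 had the other transcript above 0, at 1.19 and 0.963 RPKM. Among EtOH livers only animals 2 and 6 had it, at 0.148 and 0.240 RPKM. The low values of these 2 controls thus depend on the division. Summed over both, a step chosen after the values were seen, control livers ranged from 2.16 to 11.1 RPKM and EtOH livers from 0.543 to 1.39 RPKM, without overlap.

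Abcg5 and Abcg8 encode the 2 partners of the pump that secretes cholesterol and plant sterols into bile, and lie next to each other on chromosome 6. For Abcg5 the lowest, median and highest values were 0.696, 2.12 and 3.95 RPKM in control livers and 0.164, 0.497 and 1.07 RPKM in EtOH livers. Again control animals 1 and 6 were the lowest controls, at 0.696 and 0.769 RPKM, within the EtOH range. The log2 fold change was -1.26 (SE 0.39, limma adjusted p = 0.119), and it was called under none of 23 alternatives. Abcg8 was near the limit of detection. It had 30 recovered reads among controls and 3 among EtOH animals, and was above 0 in 5 of 12 livers. Control animal 3 held the highest value, 1.19 RPKM, and the log2 fold change was -0.52 (limma adjusted p = 0.40). That value depends on the added constant at so low a level: it was -1.23 with 0.1 added in place of 0.5 and -1.90 with recovered reads, and -0.26 without control animal 3, and no alternative called it. Summed over its 3 listed transcripts, a step chosen after the values were seen, Abcg8 ranged from 0.0607 to 1.19 RPKM in control livers and from 0 to 0.121 RPKM in EtOH livers, with overlap.

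The pair is shown here because both genes start from 1 shared stretch of DNA. In the RefSeq annotation of GRCr8, a promoter window of 250 bases before to 50 bases after the annotated start was found for 50 of the 64 genes, and the windows of Abcg5 and Abcg8 overlap by 295 bases on opposite strands. The window of Abcg5 on the plus strand is chr6:15717686-15717985. Capitals mark AGATAA, the letters bound by GATA factors, searched on both strands.
Abcg5: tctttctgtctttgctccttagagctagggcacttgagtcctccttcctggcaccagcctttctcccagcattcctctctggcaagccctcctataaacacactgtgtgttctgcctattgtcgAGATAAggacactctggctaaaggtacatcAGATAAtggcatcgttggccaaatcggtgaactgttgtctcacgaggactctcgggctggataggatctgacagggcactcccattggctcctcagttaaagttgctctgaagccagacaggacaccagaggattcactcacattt
The window holds 2 copies of AGATAA, which 11.6% of 33469 promoters of this length hold at least once, and 1 copy of TGACNNNGC, the core of the antioxidant response element, held by 12.1%. It holds no AGGTCA, a nuclear receptor half-site found in 16.2%. The window of Abcc4 holds none of the 3. These matches are letters only, and no binding was measured.

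**Figure D3:**
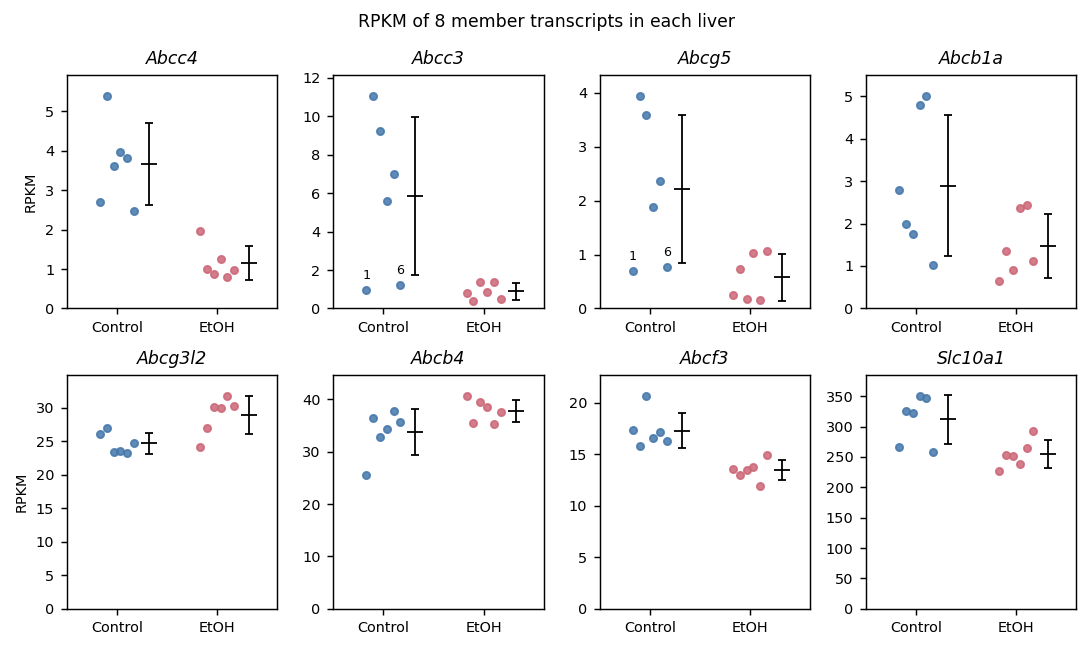
RPKM in each liver for 8 of the genes, with control livers in blue, EtOH livers in red and the mean ± SD (n = 6) beside each group; axes start at 0 and differ between panels, and control animals 1 and 6 are numbered for Abcc3 and Abcg5. Abcc4 and Abcf3 show no overlap, whereas control animals 1 and 6 sit at EtOH levels for Abcg5 and for the transcript of Abcc3 shown. Summed over its 2 listed transcripts, Abcc3 had no overlap.

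Abcg3l2 belongs to a rodent cluster of Abcg2 relatives on chromosome 14 (chr14:5573149-5613575 as listed). Control livers had a lowest, median and highest of 23.2, 24.1 and 27.0 RPKM, and EtOH livers of 24.1, 30.0 and 31.7 RPKM. EtOH animals 1 and 2 fell within the control range and the other 4 lay above it. Abcg3l2 rose by 0.37 on the log2 scale (SE 0.08, limma adjusted p = 0.035), and the two-sided exact permutation test gave p = 0.0087. This call was fragile. It was lost in 8 of 12 cases in which 1 liver was left out (control animals 3, 4 and 5 and EtOH animals 2 to 6, with adjusted p between 0.063 and 0.076). It was also lost without normalization between livers (log2 fold change 0.22, adjusted p = 0.123). Abcg3l3, of the same cluster, ranged from 2.31 to 3.78 RPKM in control livers and from 2.86 to 4.64 RPKM in EtOH livers. Its log2 fold change was 0.47 (SE 0.14, limma adjusted p = 0.120). Abcg3l1 had 0.20 (limma adjusted p = 0.65), and the fourth gene of the cluster, Abcg3, had -0.06 (limma adjusted p = 0.67). Similar copies can share reads, so the split of reads among the 4 genes is uncertain. How alike their transcripts are was not examined.

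The promoter windows of Abcg3l2 (chr14:4838068-4838367, minus strand) and Abcg3l3 (chr14:5148681-5148980, plus strand), both in GRCr8, are printed to show how alike these windows are. Capitals mark their longest shared run, of 54 bases.
Abcg3l2: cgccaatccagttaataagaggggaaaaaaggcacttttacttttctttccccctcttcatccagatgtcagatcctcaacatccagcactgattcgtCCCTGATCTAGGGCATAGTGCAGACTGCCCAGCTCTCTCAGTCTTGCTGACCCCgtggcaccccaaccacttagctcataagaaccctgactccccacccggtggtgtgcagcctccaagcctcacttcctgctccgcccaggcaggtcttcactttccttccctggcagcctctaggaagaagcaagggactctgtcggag
Abcg3l3: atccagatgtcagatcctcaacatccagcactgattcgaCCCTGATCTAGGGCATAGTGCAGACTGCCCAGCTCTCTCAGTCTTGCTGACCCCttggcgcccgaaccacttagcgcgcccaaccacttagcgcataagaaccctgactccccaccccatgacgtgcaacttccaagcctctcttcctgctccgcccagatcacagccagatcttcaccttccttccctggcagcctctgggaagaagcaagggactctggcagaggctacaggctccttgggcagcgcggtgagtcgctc
Abcg3l1 shares a run of 64 bases with Abcg3l2 and of 85 bases with Abcg3l3. The longest run that Abcg3 shares with any of these 3 windows is 7 bases.

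Abcb4 and Abcg2 are canalicular pumps as well. Abcb4 had a lowest, median and highest of 25.5, 35.0 and 37.9 RPKM in control livers and 35.3, 38.1 and 40.7 RPKM in EtOH livers. The groups overlapped, control animal 1 being the lowest. The log2 fold change was 0.33 (SE 0.08, limma adjusted p = 0.065), and Abcb4 was called under 2 of 23 alternatives. These were without control animal 6 (0.045) and with transcripts below a mean of 1 RPKM left out (0.037). The change depended on scaling: it was 0.17 without normalization between livers (limma adjusted p = 0.35) and 0.26 under median scaling (limma adjusted p = 0.153). Abcg2, a broad exporter of drugs and urate, had a median of 12.2 RPKM in control livers and 8.56 RPKM in EtOH livers. EtOH animal 1 held its highest value of all 12 livers at 15.1 RPKM, and the log2 fold change was -0.22 (95% interval -0.58 to 0.13), or -0.36 without that liver.

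The P-glycoproteins Abcb1a and Abcb1b, which expel many drugs, did not pass the test. Abcb1a ranged from 1.03 to 5.01 RPKM in control livers and from 0.647 to 2.43 RPKM in EtOH livers, with a log2 fold change of -0.71 (SE 0.34, limma adjusted p = 0.35). Its reads are divided among 3 listed transcripts, and the division differs between livers. Summed over the 3, values ran from 2.80 to 7.09 RPKM in control livers and from 2.31 to 3.50 RPKM in EtOH livers, so the groups overlap. Abcb1b ranged from 0.706 to 1.42 RPKM in control livers and from 0.832 to 3.00 RPKM in EtOH livers, with a log2 fold change of 0.38 (SE 0.25, limma adjusted p = 0.52). The copies are similar, and reads shared between them may be assigned to either.

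Abcc6 differed by 0.19 on the log2 scale (95% interval 0.04 to 0.33, limma adjusted p = 0.18), with means of 49.9 ± 2.53 and 50.9 ± 5.52 RPKM. The difference depended on scaling: it was 0.02 without normalization between livers (limma adjusted p = 0.90) and 0.11 under median scaling. Inside the cell, the lysosomal lipid transporter Abca2 had a log2 fold change of 0.33 (limma adjusted p = 0.23). The porphyrin transporter Abcb6 was at -0.01 (95% interval -0.19 to 0.17). Abca5 and Abca16, at mean levels of 0.396 and 0.477 RPKM, had log2 fold changes of -0.18 and -0.05. The last turned positive without normalization and under median scaling. Slc47a2, an organic cation exporter, was above 0 in 1 liver only.

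Among the importers, Slc10a1, the sodium-dependent carrier that takes conjugated bile acids from portal blood, had the highest level in control livers. Its lowest, median and highest values were 258, 324 and 350 RPKM in control livers and 227, 252 and 293 RPKM in EtOH livers. Control animals 1 and 6 lay within the EtOH range, and the other 4 lay above it. The log2 fold change was -0.20 (95% interval -0.35 to -0.05, limma adjusted p = 0.18), and no alternative called it.

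The importers described next gave intervals that include 0. Slco1b3, an older name of the bilirubin and bile acid carrier Slco1b2 in RefSeq, ranged from 196 to 301 RPKM in control livers and from 263 to 337 RPKM in EtOH livers. The low control value was that of animal 3, the next being 264 RPKM, and the log2 fold change was 0.25 (95% interval -0.03 to 0.54), or 0.12 without that liver. Slco2a1 was at 0.0005 (95% interval -0.18 to 0.18), and turned to -0.16 without normalization. Slco2b1, a carrier of steroid sulphates, was at 0.11 (95% interval -0.02 to 0.24), and turned to -0.06 without normalization. Slc22a18 was at -0.03 (95% interval -0.20 to 0.13). The organic anion carrier Slc22a7 was at 0.19 (95% interval -0.0026 to 0.39) and the carnitine importer Slc22a5 at 0.30 (95% interval -0.14 to 0.73). Slc10a5, an orphan relative of the bile acid carriers, had the highest positive value of all 64 genes at 0.85 (SE 0.39, limma adjusted p = 0.32, and 0.51 on the log2 scale without control animal 3), from 0.227 to 4.67 RPKM in control livers and from 2.09 to 5.42 RPKM in EtOH livers. Its relative Slc10a7 was at 0.17 (95% interval -0.28 to 0.63).

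The genes of Abcd, Abce and Abcf do not move solutes across the outer membrane of the cell. Abcf3, a soluble family member linked to translation, ranged from 15.8 to 20.7 RPKM in control livers and from 12.0 to 14.9 RPKM in EtOH livers, without overlap (log2 fold change -0.21, limma adjusted p = 0.099). Abcf3 passed the threshold with values left as deposited (adjusted p = 0.026) and with recovered reads (0.049). The ribosome recycling factor Abce1 had -0.29 (limma adjusted p = 0.30) and the translation factor Abcf1 had -0.16 (limma adjusted p = 0.38). Abcd3, the most abundant gene of these families, carries branched-chain and bile acid precursors into peroxisomes. It had 76.3 ± 5.33 RPKM in control livers and 68.3 ± 6.56 RPKM in EtOH livers, yet -0.0048 (95% interval -0.12 to 0.11) after quantile normalization. Abcd4 was at 0.09 (95% interval -0.41 to 0.59).

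The remaining 31 genes had mean levels up to 32.7 RPKM, and 20 of them were below 1 RPKM. None was called by limma in the comparison of all transcripts, their log2 fold changes ran from -0.53 (ABCC8_RAT, a potassium channel subunit) to 0.47 (Abcg3l3), the lowest adjusted p was 0.120, and 1 of them, Abcg3l3, had an unadjusted p below 0.05. A further 32 detected transcripts of the 64 genes were set aside as minor. Of these 0 were called by limma and 3 had an unadjusted p below 0.05. Over all transcripts the shares were 2.42% called and 15.5% with an unadjusted p below 0.05.

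Summed over its genes, the uptake side reached 982 ± 64.6 RPKM in control livers and 909 ± 63.5 RPKM in EtOH livers (SD, n = 6 each). The efflux side reached 231 ± 13.0 RPKM and 224 ± 10.8 RPKM. The ratio of uptake to efflux ran from 4.10 to 4.51 in control livers and from 3.87 to 4.26 in EtOH livers, with means of 4.25 ± 0.148 and 4.05 ± 0.148. Over the 15 plasma membrane exporters alone, the mean efflux sum was 116 RPKM in control livers and 109 RPKM in EtOH livers. With that sum the mean ratio was 8.459 ± 0.3975 in control livers and 8.327 ± 0.5485 in EtOH livers. The level of the ratio thus depends on which efflux genes are summed. The groups overlap, and no test was made of these sums. They are carried by few genes. Slco1b3 and Slc10a1 made up 59.3% of the uptake sum in control livers and 61.3% in EtOH livers. Abcc6, Abcb4 and Abcg3 made up 51.7% and 53.4% of the efflux sum. Abcc3, Abcc4 and Abcg5, with means over all livers of 3.36, 2.40 and 1.39 RPKM, contribute little to the efflux sum.

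Regulators of these genes and the scaffold proteins that hold transporters in the membrane were read from a list of 26, of which 24 were found. None was called lower and 3 were called higher by limma, beside 1.29% and 1.13% of all transcripts. Nr1i2, the xenobiotic receptor PXR, ranged from 40.6 to 56.4 RPKM in control livers and from 45.9 to 65.3 RPKM in EtOH livers and rose by 0.34 on the log2 scale (limma adjusted p = 0.044). Its partner Rxra rose by 0.24 (limma adjusted p = 0.023), from a median of 80.9 to 88.5 RPKM. Msn, or moesin, which ties the membrane to actin, rose by 0.60 (limma adjusted p = 0.036), from a median of 5.56 to 8.05 RPKM. The groups of all 3 overlapped. Before normalization, the mean of EtOH livers was 1.13 times the control mean for Nr1i2, 1.07 times for Rxra and 1.45 times for Msn. The size of the first 2 changes thus depends on scaling. The receptor CAR (Nr1i3) had -0.69 (SE 0.45, limma adjusted p = 0.52) and the bile acid receptor FXR (Nr1h4) had 0.08 (95% interval -0.22 to 0.38). Hnf4a had 0.0051 (95% interval -0.19 to 0.20) and Nfe2l2, which encodes the transcription factor NRF2, had -0.15 (limma adjusted p = 0.51). The other list members found were not called, among them Nr0b2, Keap1, Ahr, Ppara, Nr1h3, Nr1h2, Nr5a2, Foxa2, Cebpb, Slc9a3r1, Ezr, Atp8b1, Tmem30a, Myo5b, Rab11a and Vps33b.

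A list of 12 genes known as targets of NRF2 was read beside the transporters, since Abcc3 and Abcc4 are known targets as well. Of 10 found, 6 were called lower by limma and 0 higher, with a list median of -0.63. Over all transcripts 1.29% were called lower and 1.13% higher. Among the 11086 transcripts with a mean of at least 1 RPKM, 260 were called lower and 235 higher. The list was chosen with earlier results of these data known, and the paper had reported Gclc and Me1 as lower. Its share called is thus a description only, and a link of the transporters to NRF2 was not tested. Gstp1, a glutathione transferase, ranged from 39.0 to 480 RPKM in control livers and from 16.0 to 28.4 RPKM in EtOH livers, and fell by 2.69 on the log2 scale (limma adjusted p = 0.023). The aldo-keto reductase Akr1b8 fell by 2.58 (limma adjusted p = 0.0057) and malic enzyme, Me1, by 1.40 (limma adjusted p = 0.0039). The glutathione synthesis genes Gclc and Gclm fell by 0.61 and 0.64, and thioredoxin reductase, Txnrd1, by 0.55 (limma adjusted p = 0.018, 0.034 and 0.015). Hmox1, Nqo1 and Ugdh were not called.

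The spread among control animals was shared by several of these genes. Control animals 1 and 6 were the lowest pair of controls for Abcc3, Abcg5 and Abcc4, and also for Gstp1, Akr1b8, Gclm, Txnrd1 and Me1. For Gclc the lowest pair was animals 5 and 6, and for Abcb1a animals 6 and 3. These genes were set side by side after their values were seen, and no test was made of the likeness.

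**Figure D4:**
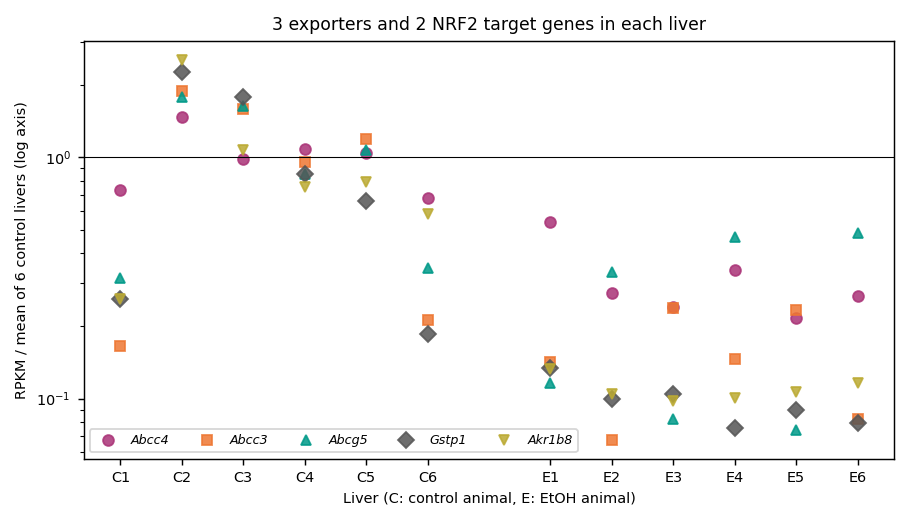
RPKM in each liver divided by the mean of the 6 control livers (log axis) for Abcc4, Abcc3, Abcg5, Gstp1 and Akr1b8; C1 to C6 are control animals and E1 to E6 EtOH animals. Control animals 1 and 6 lie low for all 5 genes, and all EtOH values lie below the control mean.

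Markers of other liver cells were read beside these results. Over all transcripts 1.13% were called higher by limma and 2.42% in either direction. Of 4 macrophage markers found, Cd163 and Clec4f, both of Kupffer cells, were called higher by limma. The summed RPKM of the 4 ran from 67.1 to 108 in control livers and from 95.5 to 126 in EtOH livers. None of 4 cholangiocyte, 2 endothelial, 5 stellate cell and 2 blood markers was called. Summed stellate cell markers ran from 5.28 to 10.1 RPKM in control livers and from 8.87 to 21.2 RPKM in EtOH livers, endothelial markers from 21.0 to 27.1 and from 22.9 to 33.1 RPKM, and blood markers from 184 to 392 and from 236 to 425 RPKM. Of 5 hepatocyte markers, Cps1, an enzyme of the urea cycle, was called higher (log2 fold change 0.58) and the other 4 were not called. No marker found had 0 RPKM in all livers. The part of these differences in the transporter results was not tested.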

How the data were processed

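Liver RNA of 6 EtOH and 6 control rats was compared, each animal being 1 replicate. The authors mapped paired-end reads with CLCbio Genomics Workbench 4.9 and deposited RPKM values per transcript and liver; the genome build and strand handling are not given in the sources used here. Deposited fold changes, test statistics, p-values and FDR were not used. Animals were grouped by their labels.

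Transcripts above 0 in at least 1 liver (21718) were quantile-normalized as log2(RPKM + 0.5) and fitted with limma 3.58.1 (trend, R 4.3.3). p-values were adjusted by Benjamini-Hochberg over all of them, and 0.05 was the threshold. Exact permutation tests used Python 3.11.15 and scipy 1.17.1. Whole reads were recovered from the RPKM steps as the smallest whole numbers in the same ratios across livers, to within 0.01 read. Such numbers were found for all 21718 transcripts. For the 2052 transcripts above 0 in 1 liver only, the method gives 1 read by construction, so those read numbers are not measured. The fit was tested on simulated data. Counting precision at low levels follows from the read numbers, given beside the low genes.

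The transporters, lists and tests were chosen with earlier results of these data known. Genes were named if called, if the groups did not overlap at a mean of at least 1 RPKM, if among the 5 smallest p, if among the 3 most abundant of their family, or for a known hepatic role. Regulators were named if called or for their role. Some genes are counted but not reported here by name. The analysis was repeated under 22 other settings, which were pseudocounts of 0.1 and 1, no normalization, median scaling, square-root values with limma and with an unmoderated pooled test, minimum means of 0.1 and 1 RPKM, no trend, a replicate block, and each liver left out. The voom fit on recovered reads was chosen after seeing the data. Names and promoters came from RefSeq GRCr8; coordinates of transcripts are the authors'.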

Additional observations from a re-analysis of the deposited data

Results flagged for a closer look

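Within the 6 livers of a group, 65 groups of values were examined for a single value far from the rest, measured as its gap to the nearest value over the whole range. For normally distributed values, chance flags about 1 in 20 such groups. That rate does not hold for genes with several values at 0, such as Abcg8 and Slc47a2. A single value above 0, as for Slc47a2, is flagged by construction. The values that stood apart were all among control livers. Control animal 3 had the highest Abcf1 level at 22.5 RPKM (nearest control 16.8) and the highest Abcf3 level at 20.7 RPKM (nearest 17.3). It also had the highest Abcg8 level at 1.19 RPKM (nearest 0.326) and the only Slc47a2 signal at 0.172 RPKM. The same animal had the lowest Slco1b3 level at 196 RPKM (nearest 264). Control animal 1 had the lowest Abcd3 level at 66.0 RPKM (nearest 76.3). None of these genes was called with or without the liver in question, and Slc47a2 could not be fitted without it. Without control animal 3 the log2 fold change moved from 0.25 to 0.12 for Slco1b3, from -0.52 to -0.26 for Abcg8 and from -0.16 to -0.11 for Abcf1, and the cause was not tested.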

How the results depend on the processing

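Over 23 alternatives and 33 genes, 753 comparisons were made, of which 696 kept direction and side of the threshold, 15 lost and 12 gained significance, and 30 changed sign. Transporters called lower were 1 here, 4 without normalization and by voom, 2 with a minimum mean of 1 RPKM and 1 to 3 when 1 liver was left out. Transporters called higher were 1 here, 0 without normalization, under median scaling, unmoderated, without trend and by voom, 2 with a minimum mean of 1 RPKM and 0 to 2 with 1 liver left out. All transcripts called were 526 here, 322 unmoderated, 860 with a minimum mean of 1 RPKM and 212 to 656 with 1 liver left out, the low counts being without control animals 2 or 4 (275 and 285) or EtOH animals 2, 3, 4 or 5 (212, 252, 295 and 298). Replicate numbers are only names here: same-numbered livers correlated at -0.067 to 0.032 and others at -0.071 to 0.067. With the replicate block 0 transporters were called in either direction and 113 transcripts in all, and Abcc4 (adjusted p = 0.066) and Abcg3l2 (0.153) lost their calls. The efflux median moved from 0.0031 to 0.0354 under median scaling, -0.0747 by voom and -0.0601 over plasma membrane exporters, and the uptake median from -0.06 to -0.17 by voom. Medians were not computed on square-root values. Signs changed for Abca16 (0.009 without normalization, 0.0453 under median scaling, -0.1589 to 0.084 with 1 liver left out), Slco2a1 (-0.16 without normalization, -0.0682 under median scaling, -0.0035 on square-root values, -0.15 by voom, -0.058 to 0.034 with 1 liver left out), Slco2b1 (-0.0629 and -0.0534 without normalization and by voom) and, with 1 liver left out, Abcd3 (-0.0296 to 0.0186), Abcb6 (-0.0707 to 0.0365), Slc22a18 (-0.0687 to 0.0117) and Abcd4 (-0.0196 to 0.1927). The cause of these changes was not tested. Depth limits genes with few reads, such as Abcg8.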
